A study of Mus musculus with 21 samples.

Results

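PDS5B was depleted for 48 h in mouse embryonic stem cells (mESCs) that lack PDS5A, and their mRNA was set against that of the same knockout cells given a control siRNA. The members were chosen by their labels: Pds5a-KO siPds5b replicates 1 to 3 and Pds5a-KO siGLO replicates 1 to 3, which are 6 of the 21 libraries of the series. Both groups are v6.5 male mESCs grown on gelatin and come from a single CRISPR-Cas9 clone with an edit in exon 2 of Pds5a. The cells received 50 nM siRNA, siGLO being the transfection control, and poly-A RNA was sequenced. Unedited cells of the same line (WT) with siGLO or siPds5b, and Pds5a-KO cells with siStag1 or siStag2, 3 libraries each, give the comparisons between genotypes and between siRNAs. The last 3 of the 21 libraries are Pds5b-KO cells with siGLO. They entered the model, and so the estimate of spread behind each p-value, but no comparison.

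Cohesin is a protein ring of SMC1A, SMC3 and RAD21 that holds sister chromatids together and extrudes chromatin loops, and STAG1 or STAG2 completes it. PDS5A and PDS5B are closely related proteins that bind the ring at RAD21. They are reported to take part with WAPL in releasing cohesin from chromatin and in the acetylation of SMC3. A role in halting loop extrusion at CTCF sites has been proposed and is debated.

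The 6 libraries held between 18752413 and 22026367 counts. All 10 of 10 mESC markers were detected in every library, and their summed level was 142864, 135031 and 126012 normalised counts in siGLO and 123610.0, 116103 and 110604 in siPds5b, with Tdgf1 and Dppa5a the most abundant. The siPds5b sums all lay under the siGLO sums, and the cells carry the marker profile of mESCs in both groups. The 20 primitive endoderm markers summed to 48653, 37489.5 and 40302 in siGLO and 45823, 36109 and 38915 in siPds5b, and the 12 feeder fibroblast markers to 1094, 2115 and 2748 and 1235, 2086 and 2546.

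The 19 trophoblast markers followed the replicate number and not the siRNA, at 22386, 50954 and 54277 in siGLO and 22073, 48249.7 and 51100.4 in siPds5b. Krt8, Krt18 and Peg10 were the most abundant of them, and the sum mainly tracks these genes. Krt8 had 6091, 18271 and 17867 in siGLO and 6596, 17193 and 17299 in siPds5b. Cdx2 had only 30.5, 38.3 and 42.4 in siGLO and 45.3, 49.8 and 49.8 in siPds5b. Eomes had 174, 237 and 221 in siGLO and 188, 206 and 200 in siPds5b. Tpbpa had 0 counts in all 6 libraries. The same sum was 8523, 7623 and 8382 in WT siGLO.

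The siRNA lowered its target. Pds5b had 2614, 2074 and 2412 in siGLO and 1073, 901 and 736 in siPds5b, in counts normalised to a common library size, the unit of all levels below. No siPds5b library reached the lowest siGLO library. The log2 fold change was -1.39 ± 0.11, adjusted p = 2.3e-08 (± SE, n = 3 libraries per group, edgeR). An exact permutation test of the 6 values gave p = 0.1, the smallest that 20 arrangements allow. Pds5a itself, whose transcript is still detected in the knockout, had 4786, 3788 and 4239 in siGLO and 4082, 3806 and 3522 in siPds5b, overlapping ranges with a log2 fold change of -0.17 ± 0.09, adjusted p = 0.22. In WT the same siRNA took Pds5b from 2354, 2019 and 2285 to 687, 839 and 802, a log2 fold change of -1.52 ± 0.11, adjusted p = 4.9e-08.

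**Figure D1:**
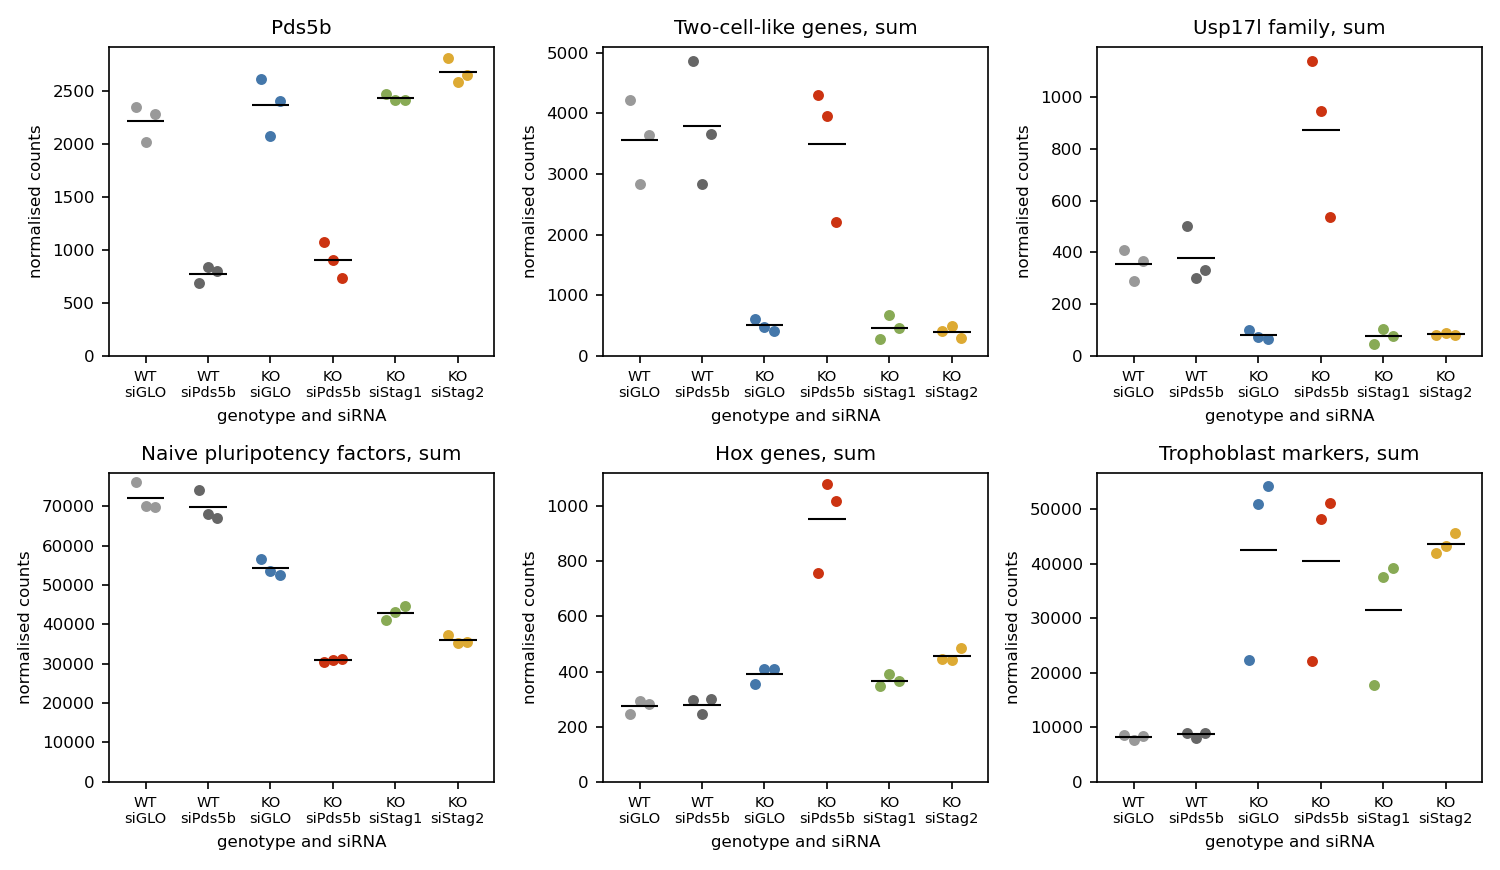
Levels of Pds5b and of the summed two-cell-like, Usp17l, naive pluripotency, Hox and trophoblast genes in each library of 6 groups. Points are single libraries and bars are group means.

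Loss of PDS5B on top of the missing PDS5A moved the transcriptome in both directions. Genes of the two-cell-like state, several developmental regulators and some interferon-stimulated genes rose, while the network of naive pluripotency factors fell.

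Of 14963 tested genes, 1136 differed between siPds5b and siGLO at an adjusted p under 0.01 and are called DEGs here (7.59% of the genes tested). Of these, 599 were higher (4.0%) and 537 lower (3.59%) in siPds5b, that is 52.7% higher, or 62.0% with scaling by library totals only. The median log2 fold change was 0.94 among the higher and -0.57 among the lower DEGs, against -0.000382 over all tested genes. At least a doubling was seen in 282 of the higher DEGs, and a fall to at most 50% in 95 of the lower ones. For 1132 of the DEGs the 3 siPds5b values lay wholly on one side of the 3 siGLO values, which held for 4675 of all tested genes (31.2%). The count of DEGs was 689 without siGLO replicate 2, 710 without siPds5b replicate 2 and 524 with only these 2 groups in the model. The 6 libraries are wells of a single clone, and the spread behind these p-values is pooled over the groups of the model.

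The higher DEGs were mostly genes of low expression and the lower ones mostly genes of high expression. With the tested genes split by mean expression into 4 bins of equal size, 203 genes were higher and 21 lower in the lowest bin, and 81 were higher and 210 lower in the highest. By chromosome, the X had 51 higher and 6 lower DEGs among 542 tested genes, and chromosome 17 had 14 higher and 41 lower among 767.

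**Figure D2:**
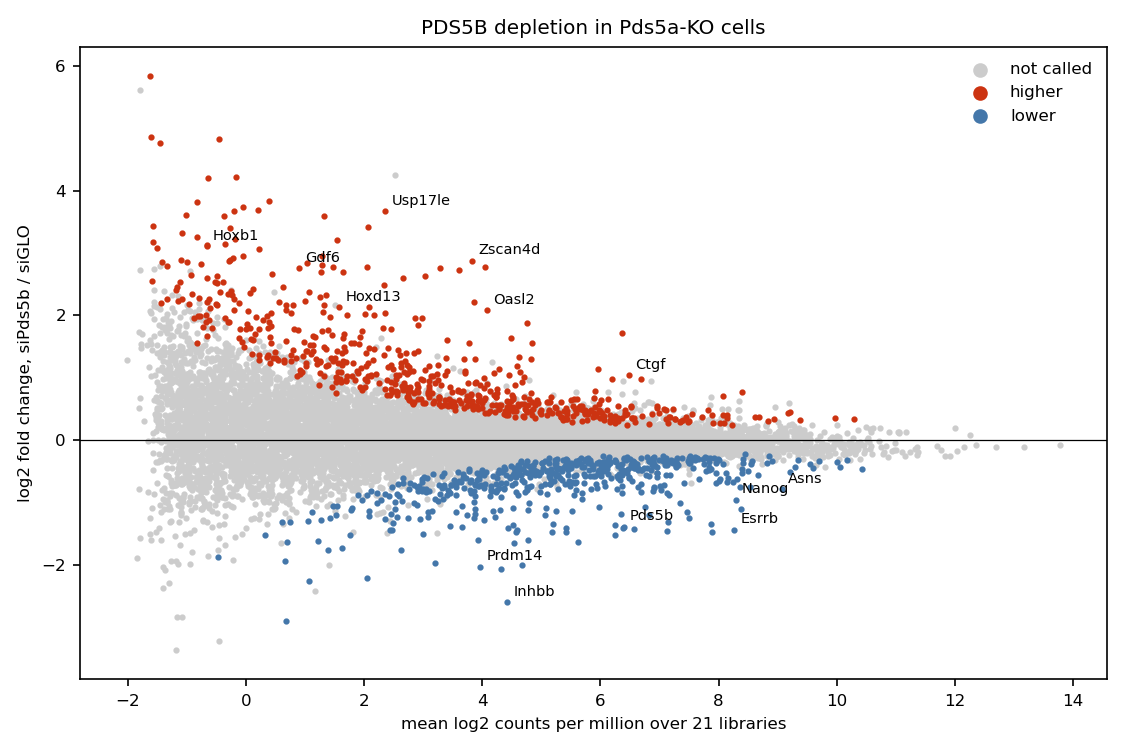
Log2 fold change of every tested gene between siPds5b and siGLO in Pds5a-KO cells against its mean expression. Higher and lower genes past the threshold are coloured and examples are labelled.

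The naive pluripotency network fell as a group. These factors keep mESCs in the state of the preimplantation epiblast and sustain one another's transcription. Of 16 listed factors, 12 were lower and 0 higher, with a median log2 fold change of -1.09, and every one of the 16 had a negative fold change. Their summed level was 56517, 53561 and 52549 in siGLO and 30383, 31025 and 31208 in siPds5b, a ratio of 0.569, with no overlap between the groups. Mybl2 was the most abundant of them. The WT siGLO mean of the same sum was 71953.

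Prdm14, a repressor of the primed programme and of DNA methylation, had the largest fall of these factors, with 289, 312 and 336 in siGLO and 62.2, 82.9 and 85.7 in siPds5b and no overlap. Its log2 fold change was -2.03 ± 0.18, adjusted p = 6e-08. The orphan nuclear receptor Esrrb had 6206, 5881 and 5824 in siGLO and 2245, 2104 and 2282 in siPds5b, again without overlap, and a change of -1.43 ± 0.08, adjusted p = 2.1e-11. Klf4, a Krüppel-like factor of the core network, had 1707, 1626 and 1622 in siGLO and 573, 657 and 617 in siPds5b, with every siPds5b library far under the siGLO libraries, and -1.42 ± 0.08, adjusted p = 2.1e-11. The nuclear receptors Nr0b1 and Nr5a2 changed by -1.51 ± 0.15, adjusted p = 1.5e-06 and -1.20 ± 0.11, adjusted p = 6e-08. The grainyhead-like factor Tfcp2l1 changed by -1.25 ± 0.18, adjusted p = 0.00018. Nanog had 5658, 6471 and 6691 in siGLO and 2602, 3594 and 3515 in siPds5b, separate ranges, and a log2 fold change of -0.96 ± 0.13, adjusted p = 3.3e-05. Zfp42, which encodes REX1, changed by -1.10 ± 0.10, adjusted p = 6e-08, and Mybl2, a MYB-family cell cycle factor, by -0.51 ± 0.09, adjusted p = 0.00027.

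The factors shared by naive and later pluripotency changed less. Of 16 listed genes 5 were lower and 0 higher, with a median of -0.13, and the count fell to 2 or 3 without siGLO replicate 1 or 2 or siPds5b replicate 2 or 3. Sox2 had 8656, 7375 and 7400.4 in siGLO and 5006, 4355 and 4601 in siPds5b, with no overlap, and a log2 fold change of -0.75 ± 0.07, adjusted p = 1.7e-07. Trim28, the KAP1 corepressor that silences retroelements, changed by -0.46 ± 0.09, adjusted p = 0.0008. Pou5f1 had 24646, 22809.5 and 21235 in siGLO and 19426, 17768 and 17832 in siPds5b, which do not overlap, and -0.32 ± 0.08, adjusted p = 0.0091. That call was lost with RLE scaling, with library totals only, with only these 2 groups, with at least 10 counts in every library, and without any 1 of siGLO replicates 1 and 2 and siPds5b replicates 1, 2 and 3, where its log2 fold change lay between -0.36 and -0.26 and its adjusted p reached 0.059. Among the 10 mESC markers, 6 were lower and 0 higher. In the shared pluripotency list, the higher count was 1 with replicate number in the model.

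Inhbb, Gli1 and Fgf17 were among the 15 largest decreases of the naming rule. Inhbb encodes the beta-B chain of activins, and had 309.8, 318 and 334 in siGLO and 53.3, 61.2 and 43.9 in siPds5b, wide apart, with the largest decrease by the naming rule, -2.60 ± 0.28, adjusted p = 6.3e-06. Gli1, the Hedgehog transcription factor, had 299.6, 397 and 366 in siGLO and 82.6, 65.3 and 106 in siPds5b, also apart, and -2.07 ± 0.17, adjusted p = 1.4e-08. The FGF ligand gene Fgf17 had 412, 539 and 448 in siGLO and 101, 127 and 124 in siPds5b, with no overlap, and -1.99 ± 0.14, adjusted p = 2.1e-09. Inhbb lies beside Gli2 and Tfcp2l1 on chromosome 1, and these 3 neighbours were all lower, Gli2 at -1.48 ± 0.14, adjusted p = 3.3e-07.

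Other genes among the 15 largest decreases have roles outside this circle. Sgk2 encodes a kinase of the SGK family and changed by -2.26 ± 0.37, adjusted p = 0.00013. Nkx6-3 encodes a homeodomain protein, with -2.22 ± 0.40, adjusted p = 0.00042, and Accsl a protein related to aminocyclopropane carboxylate synthases, with -1.97 ± 0.24, adjusted p = 3.9e-06. Lrrc34 encodes a leucine-rich repeat protein of pluripotent cells, at -1.66 ± 0.18, adjusted p = 2.4e-06. The RAS-family GTPase gene Mras and the ARF GTPase-activating gene Adap1 changed by -1.60 ± 0.19, adjusted p = 3.9e-06 and -1.59 ± 0.12, adjusted p = 5.2e-09. Gm7325, which encodes the muscle fusion peptide myomixer, changed by -1.63 ± 0.16, adjusted p = 9.3e-07. Madcam1, for an adhesion protein of vessels, Tekt1, for a tektin of cilia, Arl14epl and A930011O12Rik completed the list. The call of Madcam1 was lost with only these 2 groups.

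The two-cell-like genes had the largest median increase of the lists. They mark the rare mESCs that resemble the blastomeres after zygotic genome activation, where they are transcribed in a burst. Of 23 tested genes 20 were higher and 0 lower, with a median log2 fold change of 2.77. They summed to 609, 479 and 414 in siGLO and 4311, 3958 and 2211 in siPds5b, a ratio of 6.97 with no overlap. The WT siGLO libraries held 4227, 2839 and 3635, so the Pds5a-KO siPds5b sum of replicate 1 lay above those of unedited cells, that of replicate 2 among them and that of replicate 3 under them, a difference that was not tested. More such cells and more RNA per cell cannot be told apart in bulk RNA. Only 8 of these genes have at least 10 counts in every library, and all 8 were called under that filter.

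The Zscan4 family encodes SCAN-domain zinc finger proteins tied to telomere upkeep. Its 6 members are near-identical and may share reads, which was not measured, so the value of a single member is uncertain. The family summed to 398, 337 and 272 in siGLO and 2548, 2433 and 1356 in siPds5b, a ratio of 6.30, with no overlap. Zscan4d changed by 2.88 ± 0.34, adjusted p = 2.6e-05, Zscan4c by 2.77 ± 0.33, adjusted p = 3.1e-05 and Zscan4f by 2.73 ± 0.35, adjusted p = 4e-05. The Usp17l family of deubiquitinases may share reads in the same way and summed to 97.5, 72.0 and 65.5 in siGLO and 1140.0, 945 and 538 in siPds5b, a ratio of 11.2, again with separate ranges. Its mean was 354 in WT siGLO, under every Pds5a-KO siPds5b library. Usp17le had 15.2, 22.4 and 21.2 in siGLO and 345, 277 and 134 in siPds5b, no overlap, and the largest increase by the naming rule, 3.67 ± 0.35, adjusted p = 3.3e-07. Usp17lb and Usp17lc changed by 3.41 ± 0.35, adjusted p = 7.6e-07 and 3.59 ± 0.40, adjusted p = 1.7e-06.

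Some members were all but silent in the control. Tdpoz1, for a TD and POZ domain protein, had 1, 0 and 1 counts in siGLO and 30, 28 and 11 in siPds5b, and Tdpoz3 had 2, 1 and 0 counts in siGLO and 42, 35 and 20 in siPds5b. Zfp352, a zinc finger gene of early embryos, had 2, 2 and 0 counts in siGLO and 43, 18 and 21 in siPds5b. All 3 passed the test, with adjusted p = 0.00028, 6.5e-06 and 3.8e-05, and counts in place of folds are given because the siGLO level is near 0. Of 41 tested genes with at most 3 counts in every siGLO library 12 were higher DEGs, 1 of them with 0 in all 3. Genes this low in siGLO are tested only where other libraries hold more counts.

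These genes lie in blocks of related neighbours. The 6 Zscan4 genes form one run of adjacent higher DEGs on chromosome 7, with log2 fold changes of 2.14 to 2.88. A run of 8 on chromosome 12 around Gm8300 spans 2.17 to 3.07, a run of 6 on chromosome 13 around Tcstv1 and Tcstv3 spans 2.36 to 3.40, and a run of 5 Pramel-like genes on chromosome 4 spans 1.77 to 4.23. Reads may be shared within each of these families too. In all, 24 runs of 3 or more adjacent DEGs of the same direction were found. Of 1132 DEGs with a further tested gene after them along the chromosome, that next gene was called in the same direction for 160 (14.1%) and in the opposite one for 19 (1.68%). Over all tested genes 4.0% were higher and 3.59% lower. Pairs within the families above are part of the 160, and no count without them was made.

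RefSeq promoters in build GRCm38.p6 were at hand for 4 of the 6 Zscan4 genes and 4 of the 5 Usp17l genes, and 4 and 3 of these hold the TATA box sequence TATAAA on either strand, as do 4473 of all 32851 promoters of 300 bases (13.6%). The difference was not tested. The windows below are placed on it, from 80 bases before to 20 bases after, so each holds it by construction. The box is in capitals. They are shown because genes of these families are among the 15 largest increases by the naming rule.

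Zscan4c: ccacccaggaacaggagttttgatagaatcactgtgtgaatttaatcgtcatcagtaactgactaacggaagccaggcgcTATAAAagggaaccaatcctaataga

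Zscan4d: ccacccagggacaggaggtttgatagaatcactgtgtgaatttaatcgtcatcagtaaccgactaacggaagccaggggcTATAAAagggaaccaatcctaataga

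Usp17lc: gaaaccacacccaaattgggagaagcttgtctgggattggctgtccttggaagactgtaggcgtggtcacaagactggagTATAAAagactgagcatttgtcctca

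Usp17ld: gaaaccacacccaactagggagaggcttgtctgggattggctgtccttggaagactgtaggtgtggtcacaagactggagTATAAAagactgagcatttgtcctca

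Zscan4c is at chr7:11005611-11005716 (plus strand), Zscan4d is at chr7:11166188-11166293 (minus strand), Usp17lc is at chr7:103416528-103416633 (plus strand) and Usp17ld is at chr7:103252590-103252695 (minus strand). Of 106 bases, 102 are the same in Zscan4c and Zscan4d, and 102 in Usp17lc and Usp17ld. Among the windows not shown, Zscan4b and Zscan4f match Zscan4d at 102 and 101 bases, and Usp17lb matches Usp17lc at 99.

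Some regulators of later development rose from low levels. Hox genes pattern the body axis and are held silent in mESCs. Of 22 tested Hox genes 7 were higher and 0 lower, with a median of 1.14, and all 22 had a positive fold change. Only 22 of the 39 listed passed the filter on counts, which admits a gene through any group with enough counts. Members low in siGLO could thus be tested because siPds5b libraries held more, which favours positive fold changes. All 39 listed ones summed to 354, 409 and 409 in siGLO and 757, 1079 and 1019.6 in siPds5b, without overlap. Hoxd13, of the limb and genital end of its cluster, had 48.8, 32.7 and 22.2 in siGLO and 164, 165 and 124 in siPds5b, separate ranges, and 2.13 ± 0.28, adjusted p = 1.2e-05. Hoxb1, a hindbrain gene, had 5.08, 3.74 and 1.93 in siGLO and 12.4, 41.5 and 41.9 in siPds5b, also separate, and 3.11 ± 0.56, adjusted p = 0.00046. Hoxd13 kept the call in every fit and Hoxb1 in every one that tested it. The number of Hox genes called fell to 2 without siGLO replicate 1 or siPds5b replicate 2 and to 3 without siGLO replicate 2, siGLO replicate 3 or siPds5b replicate 3. It was also 2 with only these 2 groups, 3 with at least 10 counts in every library, where only these 3 were tested, and 5 in DESeq2 or with no filter on low counts.

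Among 42 other homeobox and T-box developmental factors 8 were higher and 0 lower, with a median of 0.58, and 5 were higher without siGLO replicate 3 and 2 of 15 tested with at least 10 counts in every library. The filter passed 42 of the 58 listed, so the same limit applies to these counts and to the median. Barx1, of jaw and stomach, had 34.5, 48.6 and 50.1 in siGLO and 161, 212 and 166 in siPds5b, no overlap, and 2.01 ± 0.26, adjusted p = 8.2e-06. Six2, of kidney progenitors, and Irx5, of the Iroquois family, changed by 1.97 ± 0.38, adjusted p = 0.00082 and 1.53 ± 0.30, adjusted p = 0.00084. Of 20 neuroectoderm regulators 4 were higher and 2 lower (median 0.63), the lower count being 1 without siGLO replicate 2, siGLO replicate 3 or siPds5b replicate 1. All 24 listed ones summed to 4166, 4332 and 4183 in siGLO and to less, 3701, 3768 and 3676, in siPds5b. Here too the filter, which passed 20 of the 24, could favour members high in siPds5b. The Notch ligand gene Dll1 changed by 1.13 ± 0.18, adjusted p = 9.3e-05, and Olig2, a basic helix-loop-helix factor, went the other way at -1.44 ± 0.16, adjusted p = 2.3e-06. Neurog2, a proneural factor, had 1.02, 3.74 and 3.86 in siGLO and 29.3, 15.5 and 19.9 in siPds5b, separate but small, and 2.85 ± 0.52, adjusted p = 0.00049. Pax6, Nes and Sox1, the first members of the list, were not called and overlapped. Pax6 had 107, 69.2 and 60.7 in siGLO and 91.5, 76.7 and 42.9 in siPds5b. Nes had 839, 1319 and 1044 against 799, 1024 and 908, and Sox1 171, 103 and 98.3 against 132, 112 and 78.7.

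Genes of the formative and primed states went both ways. Of 16, 3 were higher and 1 lower (median 0.35). Lef1, a transcription factor of the Wnt pathway, had 446, 306 and 293 in siGLO and 1096, 714 and 812 in siPds5b, no overlap, and 1.33 ± 0.23, adjusted p = 0.00086, and Nkx6-3 is the lower one. Among 33 neuronal and synaptic genes 1 was higher and 2 lower (median 0.02), with the neurofilament gene Nefm at 1.26 ± 0.25, adjusted p = 0.0012, the microtubule gene Stmn2 at -0.63 ± 0.08, adjusted p = 6.6e-06 and the tubulin gene Tubb3 at -0.57 ± 0.11, adjusted p = 0.00072. Of 64 axon guidance genes 4 were higher and 2 lower (median 0.07), the higher count falling to between 1 and 2 without siGLO replicate 2 or siPds5b replicate 1. The receptor gene Ephb1 changed by 2.26 ± 0.41, adjusted p = 0.00046, and netrin 1, Ntn1, and the receptor gene Epha4 by -1.35 ± 0.17, adjusted p = 1.5e-05 and -0.78 ± 0.14, adjusted p = 0.00032. In the neuronal list, the higher count was 2 without siPds5b replicate 1, and 2 with replicate number in the model. Over all tested genes the shares were 4.0% higher and 3.59% lower, beside which the counts of these and the following lists are to be read.

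Pathways that steer exit from pluripotency were listed as well. In the Wnt list 4 of 25 were higher and 2 lower (median 0.18), the lower count being 1 without siGLO replicate 1, siPds5b replicate 1 or siPds5b replicate 2. Fzd7, a Wnt receptor gene, changed by 0.54 ± 0.08, adjusted p = 6e-05 and Notum, whose enzyme inactivates Wnt ligands, by -1.15 ± 0.15, adjusted p = 1.2e-05. In the list for activins and their relatives 2 of 18 were higher and 1 lower (median 0.12), Inhbb being the lower one. In the BMP list 1 of 21 was higher and 0 lower (median 0.17). That gene, the BMP ligand Gdf6, had 7.11, 16.8 and 28.9 in siGLO and 93.2, 131 and 139.5 in siPds5b, no overlap, and 2.76 ± 0.36, adjusted p = 9.8e-06. In the BMP list, the higher count was 2 with replicate number in the model, and the lower count was 1 with replicate number in the model.

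Of 24 FGF and ERK genes 2 were higher and 2 lower (median 0.03), with 0 to 2 higher and 1 to 2 lower when single libraries were left out. The higher count was 0 without siGLO replicate 3 and 1 without siGLO replicate 2 or siPds5b replicate 1. The lower count was 1 without siGLO replicate 1 or siPds5b replicate 2 or 3, and 4 with replicate number in the model. Of 16 LIF and STAT3 genes 2 were higher and 2 lower (median 0.04), with 0 to 2 and 1 to 3 in the same fits, the former moved by siGLO replicates 1 and 3 and siPds5b replicate 2 and the latter by siGLO replicates 1 and 2 and siPds5b replicates 2 and 3, and 4 lower with replicate number in the model or in DESeq2. Of 21 Notch genes 3 were higher and 1 lower (median 0.01), Dll1 among the higher, and 1 was higher without siGLO replicate 1. In the YAP list 1 of 15 was higher and 0 lower (median 0.11). This was Ctgf, a secreted matrix protein gene, with 1761, 1809 and 1677 in siGLO and 3932, 3742 and 3182 in siPds5b, no overlap, and 1.05 ± 0.09, adjusted p = 6e-08. In the Notch list, the lower count was 0 without any 1 of siGLO replicates 1, 2 and 3 and siPds5b replicates 2 and 3. In the YAP list, the higher count was 2 with replicate number in the model.

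Interferon-stimulated genes went both ways. They encode sensors and effectors of antiviral defence. Of 24 tested genes 5 were higher and 1 lower, with a median of 0.20. All 28 listed ones summed to 21628, 22648 and 21036 in siGLO and 22244, 23427 and 22097 in siPds5b, with overlap. Ifitm2, a membrane protein gene and the most abundant of them, had 6158, 6489.9 and 5725 in siGLO and 4775, 5091 and 4572 in siPds5b, no overlap, and -0.35 ± 0.09, adjusted p = 0.014, which misses the threshold but passes it in DESeq2, with no filter on low counts or with replicate number in the model. The lower one is Trim25, for a ubiquitin ligase, at -0.45 ± 0.11, adjusted p = 0.0052. Its call was lost with library totals only, with only these 2 groups, and without any 1 of siGLO replicates 1 and 3 and siPds5b replicates 1 and 2. Oasl2, of the oligoadenylate synthetase family, had 221, 224 and 222 in siGLO and 893, 941 and 1009.6 in siPds5b, wide apart, and 2.09 ± 0.25, adjusted p = 1.4e-05. Zbp1, a sensor of Z-form nucleic acid, had 113, 118 and 99.3 in siGLO and 266, 252 and 334 in siPds5b, also apart, and 1.37 ± 0.23, adjusted p = 0.00023. Herc6, for the mouse ISG15 ligase, changed by 2.01 ± 0.36, adjusted p = 0.00052. The higher count was 3 without siGLO replicate 1 or siGLO replicate 2, and 8 with replicate number in the model. Outside the list, runs of adjacent higher DEGs took in the guanylate-binding protein genes Gbp7, Gbp3, Gbp1 and Gbp2 on chromosome 3, with log2 fold changes of 1.18 to 1.71. The call of Gbp1 was lost without any 1 of siGLO replicates 1, 2 and 3 and siPds5b replicates 1, 2 and 3, with an adjusted p of up to 0.027, and those of Gbp3 and Gbp7 with only these 2 groups. In the interferon list, the lower count was 0 without any 1 of siGLO replicates 1 and 3 and siPds5b replicates 1 and 2, and 3 with replicate number in the model.

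Lists of growth and stress genes held DEGs as well. Of 28 p53 targets 5 were higher and 0 lower (median 0.25), 3 without siGLO replicate 1, siGLO replicate 2 or siPds5b replicate 2, and 10 with replicate number in the model. Pmaip1, which encodes the death-promoting protein NOXA, had 1755, 1827 and 1847 in siGLO and 3851, 3803 and 3018 in siPds5b, no overlap, and 0.98 ± 0.10, adjusted p = 3.9e-07. Ddit4l, for an inhibitor of mTOR signalling, changed by 1.32 ± 0.14, adjusted p = 3.8e-07 and Trp53inp1, a stress-induced p53 cofactor gene, by 0.70 ± 0.09, adjusted p = 1.4e-05. Of 32 genes of amino acid stress and protein folding 7 were lower and 0 higher (median -0.28), 12 with replicate number in the model and 4 with only these 2 groups. The asparagine synthetase gene Asns had 10682, 11890.1 and 11338 in siGLO and 5917, 6891 and 6953 in siPds5b, separate ranges, and -0.78 ± 0.07, adjusted p = 8.4e-08. Atf5, Pck2 and Psat1, a stress transcription factor and enzymes of phosphoenolpyruvate and serine synthesis, changed by -0.72 ± 0.13, adjusted p = 0.00039, -0.57 ± 0.09, adjusted p = 0.00014 and -0.44 ± 0.08, adjusted p = 0.00032. In the p53 list, the lower count was 1 with replicate number in the model.

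Among 28 MYC and cell cycle genes 2 were higher and 3 lower (median -0.08), with 0 or 1 higher whichever library was left out and 1 lower without siPds5b replicate 2. The cyclin D3 gene, Ccnd3, had 3887, 3995 and 3896 in siGLO and 1897, 1893 and 2090.0 in siPds5b, no overlap, and -1.002 ± 0.07, adjusted p = 1.4e-09. Of 52 replication genes 4 were lower and 0 higher (median -0.08), 2 without siPds5b replicate 2. Rrm2, for the small subunit of ribonucleotide reductase, changed by -0.67 ± 0.07, adjusted p = 5.2e-07 and the clamp loader gene Rfc4 by -0.57 ± 0.09, adjusted p = 0.00017. Of 47 mitosis genes 1 was higher and 3 lower (median -0.03), and of 39 genes of homologous recombination and Fanconi repair 0 were higher and 3 lower (median -0.11), 0 to 5 lower in fits without a library, moved by siGLO replicate 1, siPds5b replicate 1 and siPds5b replicate 2. In the mitosis list, the higher count was 0 without any 1 of siGLO replicate 3 and siPds5b replicate 1, and 2 without siPds5b replicate 3.

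Genes for chromatin proteins were examined next. Of 31 Polycomb genes 4 were higher and 0 lower (median 0.01). The subunit genes of the repressive complex PRC1 Bmi1 and Cbx2 changed by 1.11 ± 0.13, adjusted p = 1.9e-06 and 0.48 ± 0.09, adjusted p = 0.00085. Of 15 DNA methylation enzymes 2 were higher and 0 lower (median 0.01), but 0 or 1 whichever of the 6 libraries, siGLO replicates 1 to 3 and siPds5b replicates 1 to 3, was left out, and 4 with replicate number in the model. Of 61 histone genes 1 was higher, Hist1h2bc at 1.03 ± 0.16, adjusted p = 0.0001, and 0 lower (median -0.19). Of 10 genes for the cohesin ring and its release, 1 was lower, Pds5b, and 0 higher (median 0.05), with 1 higher, Stag2, in DESeq2 or with scaling by library totals only, and of 12 for loading, acetylation and CTCF 0 and 0 (median 0.04). Smc3 had 8243, 7760.0 and 7506 in siGLO and 8904, 7967 and 8429 in siPds5b, with overlap, and 0.11 ± 0.07, adjusted p = 0.34. Of 24 clustered protocadherin genes 0 were higher and 0 lower (median 0.02), and of 33 Mediator genes 2 higher and 1 lower (median -0.05), the higher count being 0 or 1 without any 1 of the 6 libraries. In the Mediator list, the lower count was 0 without any 1 of siGLO replicates 1, 2 and 3 and siPds5b replicates 2 and 3. In the DNA methylation list, the lower count was 1 without siPds5b replicate 1, and 2 with replicate number in the model. In the histone list, the higher count was 2 without siPds5b replicate 3, and 2 with replicate number in the model, and the lower count was 1 with replicate number in the model.

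Lineage and adhesion genes were listed too. Of 18 tested primitive endoderm genes 0 were higher and 0 lower (median -0.07), and of 17 trophoblast genes 0 higher and 1 lower (median -0.09), Tfap2c, also a naive-state factor, at -0.86 ± 0.13, adjusted p = 9.3e-05. Feeder fibroblast markers had 0 and 0 of 9 (median -0.04). Of 21 epithelial adhesion genes 1 was higher and 0 lower (median -0.01), the E-cadherin gene Cdh1 at 0.45 ± 0.08, adjusted p = 0.00047. Mesenchymal genes had 2 higher and 0 lower of 15 (median 0.28), 1 without siGLO replicates 1, 2 or 3 or siPds5b replicates 1 or 2, with Snai2, a repressor of E-cadherin, at 2.08 ± 0.36, adjusted p = 0.00031. Collagen, laminin and integrin genes had 5 higher and 0 lower of 41 (median 0.15), 0 to 5 in fits without a library, 0 of them without siGLO replicate 1 and 1 or 2 without siGLO replicate 2 or siPds5b replicate 2 or 3, and 8 with replicate number in the model or in DESeq2. Targets of SRF and actins had 1 and 0 of 25 (median 0.33). In the SRF list, the higher count was 0 without any 1 of siGLO replicate 1 and siPds5b replicates 2 and 3, 4 without siPds5b replicate 1, and 6 with replicate number in the model. In the epithelial list, the higher count was 3 with replicate number in the model. In the primitive endoderm list, the lower count was 1 without siGLO replicate 3, and 1 with replicate number in the model.

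Other lists cover imprinting, the germline and cell survival, again beside 4.0% higher and 3.59% lower over all tested genes. Of 39 imprinted genes 1 was higher and 2 lower (median 0.09), Phlda2, a growth restrictor of the placenta, at -0.85 ± 0.12, adjusted p = 2.8e-05, and 1 was lower without siGLO replicate 2. Of 32 germline and meiosis genes 3 were higher and 2 lower (median 0.26), the lower count being 1 without siGLO replicate 1 or 2 or any siPds5b replicate (1, 2 or 3), with the synaptonemal gene Sycp2 at 1.49 ± 0.25, adjusted p = 0.00018 and the Tudor-domain gene Tdrd12 at -0.58 ± 0.11, adjusted p = 0.00046. Immediate early genes had 1 higher, the zinc finger gene Egr2 at 2.38 ± 0.46, adjusted p = 0.00084, and 0 lower of 20 (median 0.22). Apoptosis regulators had 2 higher and 1 lower of 22 (median 0.03), with 0 to 3 higher without a library, moved by siGLO replicate 2 and siPds5b replicates 1 and 2. Autophagy and lysosome genes had 0 higher and 2 lower of 28 (median -0.05), the kinase gene Ulk1 at -0.58 ± 0.11, adjusted p = 0.00086, with 1 to 3 lower without a library, moved by siGLO replicates 2 and 3 and siPds5b replicates 1 and 2. In the imprinted list, the higher count was 0 without any 1 of siGLO replicates 1, 2 and 3 and siPds5b replicates 2 and 3, and 2 with replicate number in the model. In the apoptosis list, the lower count was 0 without any 1 of siGLO replicate 2 and siPds5b replicates 1 and 3. In the immediate early list, the higher count was 2 without any 1 of siGLO replicate 2 and siPds5b replicate 1, and 4 with replicate number in the model.

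Metabolic and housekeeping lists had few DEGs. Oxidative phosphorylation had 0 higher and 0 lower of 75 (median -0.18) and the cytosolic ribosomal proteins 0 and 1 of 84 (median -0.19). Positive fold changes were found for 7 of the 75 and 6 of the 84, against 7475 of all 14963 tested genes. The groups did not overlap for 33 and 51 of them, against 4675 of all tested genes. Glycolysis and hypoxia had 1 and 0 of 38 (median 0.06), splicing factors 1 and 1 of 87 (median -0.05), and sterol and fatty acid synthesis 2 and 0 of 34 (median 0.13), with 1 to 4 without a library, moved by siGLO replicates 1, 2 and 3 and siPds5b replicates 2 and 3, 4 in DESeq2 and 5 with replicate number in the model. In the oxidative phosphorylation list, the lower count was 1 without siGLO replicate 3, and 1 with replicate number in the model. It was also 1 in DESeq2, with no filter on low counts or with only these 2 groups. In the ribosomal protein list, the lower count was 0 without any 1 of siGLO replicates 1 and 2 and siPds5b replicates 1, 2 and 3, 3 without siGLO replicate 3, and 2 with replicate number in the model. In the glycolysis list, the higher count was 0 without any 1 of siGLO replicates 1, 2 and 3 and siPds5b replicates 1 and 3, and 4 with replicate number in the model, and the lower count was 1 without any 1 of siGLO replicate 1 and siPds5b replicate 3, and 1 with replicate number in the model. In the splicing list, the higher count was 0 without any 1 of siGLO replicates 1 and 2, 2 without any 1 of siGLO replicate 3 and siPds5b replicate 1, and 2 with replicate number in the model, and the lower count was 0 without any 1 of siGLO replicates 1 and 2 and siPds5b replicate 3, 3 without siGLO replicate 3, and 3 with replicate number in the model. In the sterol list, the lower count was 1 with replicate number in the model. The naming rule gives 173 called genes. Of these, 96 kept their call and sign in every other fit that tested them and 77 lost the call in at least 1, and the genes named here were drawn mainly from the 96.

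**Figure D3:**
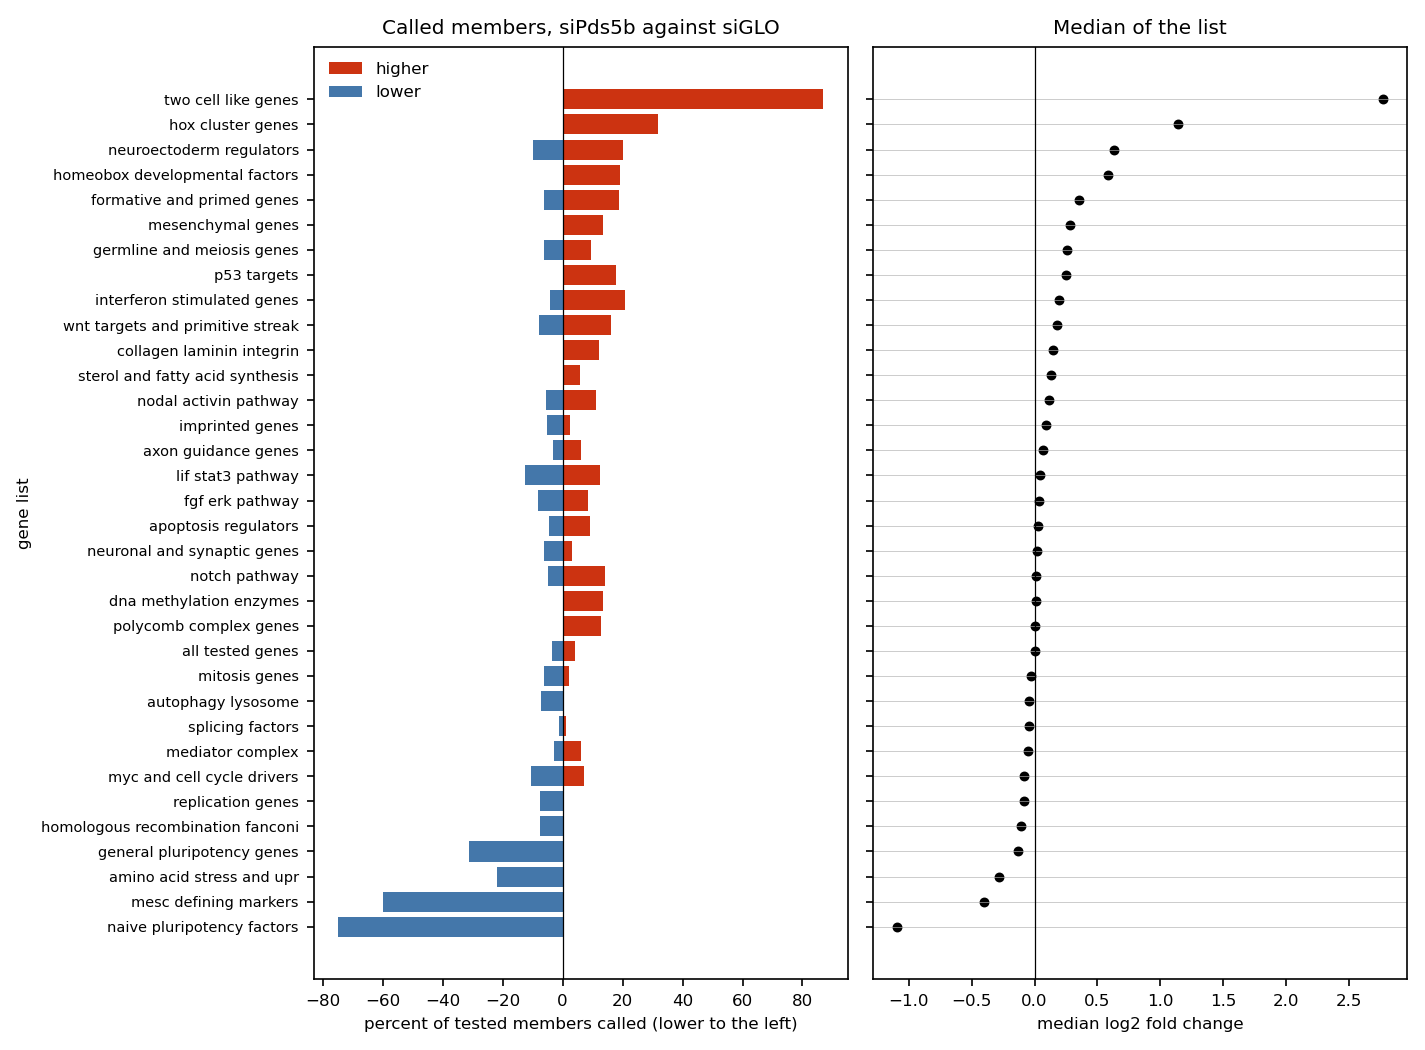
Share of tested members higher or lower in siPds5b for the gene lists with at least 2 called members, beside all tested genes, and the median log2 fold change of each list.

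The same siRNA did far less in cells that still have PDS5A. WT siPds5b against WT siGLO gave 1 DEG (0.00668%), Pds5b itself, while 631 genes had an unadjusted p under 0.05 in edgeR. Genes higher in the knockout comparison had a median log2 fold change of 0.06 in WT, and genes lower in it -0.03. Those genes were selected for their change in the knockout, so smaller medians in WT are in part built in. The difference between the genotypes was tested as an interaction in edgeR. It was called for 222 genes (1.48%), 88 with a more positive effect of siPds5b in Pds5a-KO cells (0.588%) and 134 with a more negative one (0.896%), and 216 of the 222 are also DEGs of the knockout comparison. The interaction contains the knockout comparison and its 6 libraries, so this overlap is largely built in. The share with a more positive effect was 39.6% and became 50.2% when libraries were scaled by their total only. The count was 421 in DESeq2, 389 with replicate number in the model and 134 with only the 4 groups, and it fell to between 121 and 143 without Pds5a-KO siGLO replicate 2, Pds5a-KO siPds5b replicate 2, WT siGLO replicate 2, WT siGLO replicate 3 or WT siPds5b replicate 1.

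Naive factors and two-cell-like genes were among those called. Of 16 naive factors 8 had a more negative effect in Pds5a-KO cells and 0 a more positive one, and of 23 two-cell-like genes 0 and 12. Prdm14 had 625, 607 and 544 in WT siGLO and 505, 580.4 and 551 in WT siPds5b, with overlap, where its log2 fold change was -0.12 ± 0.15, adjusted p = 1, and the interaction was -1.91 ± 0.24, adjusted p = 4.5e-05. Esrrb and Klf4 had interactions of -1.26 ± 0.11, adjusted p = 2.8e-07 and -1.21 ± 0.11, adjusted p = 4e-07, and Inhbb, Sgk2 and Gli1 of -2.38 ± 0.36, adjusted p = 0.00085, -2.71 ± 0.46, adjusted p = 0.0011 and -1.89 ± 0.22, adjusted p = 2.4e-05. For Usp17le it was 3.78 ± 0.46, adjusted p = 5.3e-05. For Oasl2 and Zbp1 it came to 2.28 ± 0.36, adjusted p = 0.0012 and 1.84 ± 0.34, adjusted p = 0.0025. No Hox gene was called, at a median of 1.06, nor any of the other homeobox factors, at 0.48.

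Depletion of the STAG subunits in the same knockout cells gave another measure of what is particular to PDS5B. siStag1 took Stag1 from 2515, 2293 and 2475 to 617, 600.0 and 506, and siStag2 took Stag2 from 3561, 2930.2 and 3275 to 851, 954 and 821, so each siRNA lowered its target without overlap. Against siGLO, siStag1 gave 14 DEGs (0.0936%) and siStag2 gave 335 (2.24%). These comparisons share the siGLO libraries with the one above, so the siRNAs were compared directly.

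Between siPds5b and siStag1 1102 genes differed (7.36%), 573 higher in siPds5b (3.83%) and 529 lower (3.54%), that is 52.0% higher, or 62.0% with scaling by library totals only. The count was between 596 and 693 without siPds5b replicate 2 or 3 or without siStag1 replicate 1, 2 or 3, and 651 with only the 2 groups. Between siPds5b and siStag2 593 differed (3.96%), 305 higher (2.04%) and 288 lower (1.92%), that is 51.4% higher, or 61.6% with scaling by library totals only. This count was 897 in DESeq2, 891 with replicate number in the model, 264 with only the 2 groups, and between 272 and 349 without siPds5b replicate 1 or 2 or siStag2 replicate 1 or 3.

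Two-cell-like genes set siPds5b apart from both. Of 23, 21 were higher than in siStag1 and 20 higher than in siStag2, with 0 lower in each, and their mean sum was 501 in siGLO, 3493 in siPds5b, 464 in siStag1 and 395 in siStag2. Usp17lb was higher by 3.80 ± 0.36, adjusted p = 5.6e-07 against siStag1 and by 3.78 ± 0.36, adjusted p = 1.1e-06 against siStag2. Hox genes were higher in 8 of 22 against siStag1 and 3 of 22 against siStag2.

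The naive factors separated the siRNAs less. Their mean sum was 54209 in siGLO, 30872 in siPds5b, 42863 in siStag1 and 36031 in siStag2. Directly compared, 8 of 16 were lower with siPds5b than with siStag1 and 3 of 16 lower than with siStag2. Against siGLO, siStag2 itself lowered 9 of the 16 and siStag1 lowered 1. Gli1 was lower with siPds5b, at -2.75 ± 0.17, adjusted p = 7.2e-11 against siStag1 and -1.74 ± 0.17, adjusted p = 7.5e-07 against siStag2. Fgf17 and Trh, the gene of thyrotropin-releasing hormone, were lower than in siStag1, at -2.11 ± 0.14, adjusted p = 7.6e-10 and -1.84 ± 0.21, adjusted p = 2.3e-05. Gli2 and Madcam1 were lower than in siStag2, at -1.45 ± 0.15, adjusted p = 1.1e-06 and -1.79 ± 0.33, adjusted p = 0.0012.

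**Figure D4:**
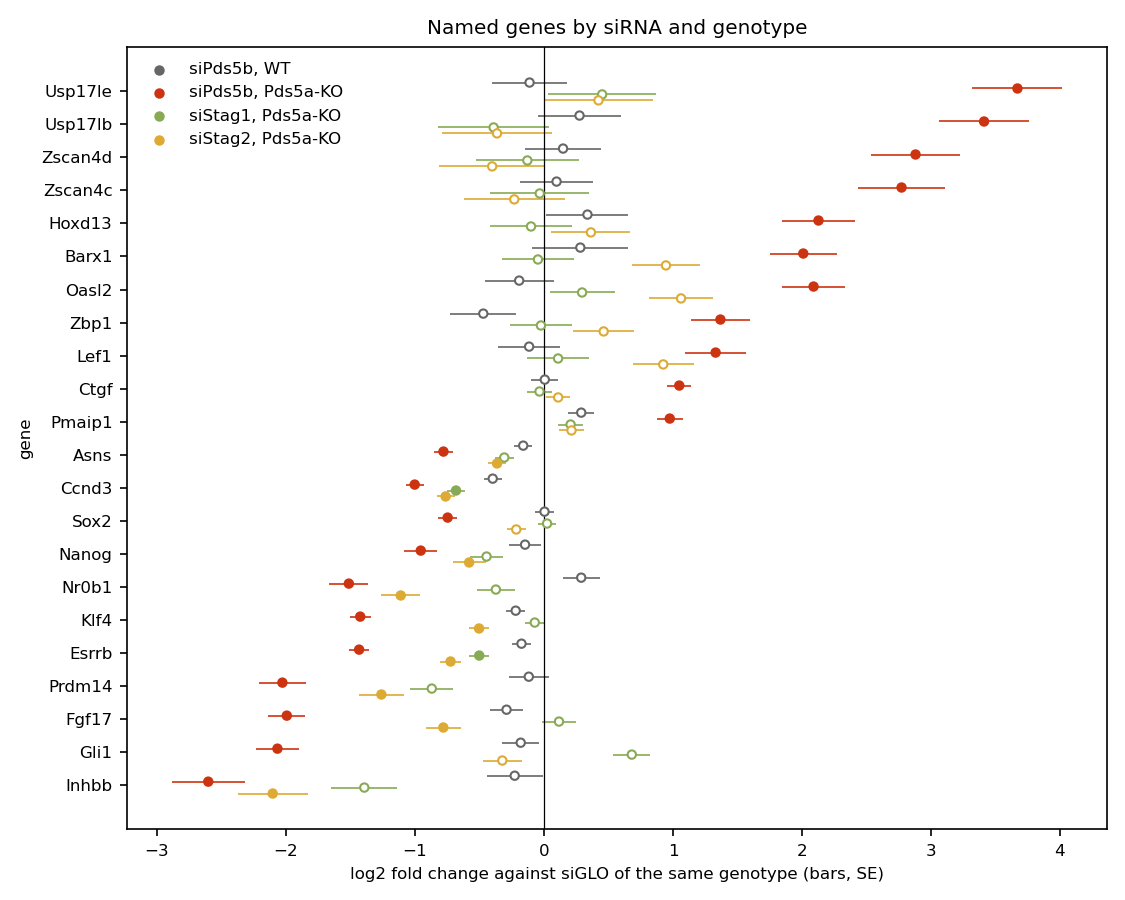
Log2 fold changes of named genes for siPds5b in WT and for siPds5b, siStag1 and siStag2 in Pds5a-KO cells, each against siGLO of its genotype. The Pds5a-KO comparisons share their control libraries, and filled points passed the threshold.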

How the data were processed

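The deposited count files, with 1 raw read count per gene symbol as made by the authors from mm10-aligned reads, were analysed as they are. The counting tool, the annotation and the strand setting are not given in the sources used here. Of 23412 symbols, 14963 passed filterByExpr. All 21 libraries in 7 groups entered a single quasi-likelihood model in edgeR 4.0.16 under R 4.3.3, with TMM scaling and robust dispersions, 1 mean per group and Benjamini-Hochberg adjustment over all tested genes. A gene with an adjusted p under 0.01 is a DEG. DESeq2 1.42.0 was run as an alternative. Normalised counts are TMM-scaled CPM multiplied by the mean effective library size of 19816922.

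The labels number the replicates and do not say whether the numbers pair libraries. Between Pds5a-KO siPds5b and siGLO, residuals of libraries with the same number correlated at 0.676, 0.331 and 0.543 over 12176 genes. Correlations between different numbers lay between -0.556 and 0.160. Between siPds5b and siStag2 the same-number values were lower, at 0.107, 0.194 and 0.328. The number was left out of the main model and the exact test, which take no account of it, and was tried as an alternative.

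The libraries and 48 gene lists were chosen with earlier results of these data known, so lists are described by counts, medians and summed levels, with no test of enrichment. Named genes come from a rule: the 15 largest increases and 15 largest decreases among DEGs without overlap whose log2 CPM averages 1 or more, up to 6 called and the first 3 members of each list, markers and siRNA targets, and the 4 largest changes per direction of the other contrasts. From these, examples were picked for the text with the stability of their calls known. Members of runs of adjacent DEGs and the most abundant members of some lists were added after seeing the data. Results of some genes that the rule gives are not reported here.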

Additional observations from a re-analysis of the deposited data

Results flagged for a closer look

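The effect of siPds5b differed between Pds5a-KO and WT cells by the interaction test of edgeR for 222 genes, 88 with a more positive and 134 with a more negative effect in Pds5a-KO cells. Among the named genes the interaction log2 fold changes past the threshold were positive for Tdpoz3 4.65, Usp17le 3.78, Zfp352 3.66, Usp17lc 3.66, Usp17ld 3.33, Usp17lb 3.14, Usp17la 2.86, Zscan4d 2.73, Zscan4f 2.69, Zscan4c 2.67, Gm8300 2.33, Oasl2 2.28, Zbp1 1.84, Ddit4l 1.05, Ctgf 1.04, Pmaip1 0.69 and Fzd7 0.55.

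They were negative for Sgk2 -2.71, Inhbb -2.38, Prdm14 -1.91, Gli1 -1.89, Accsl -1.83, Nr0b1 -1.80, Gm7325 -1.73, Fgf17 -1.70, Lrrc34 -1.54, Adap1 -1.52, Notum -1.46, Gli2 -1.42, Olig2 -1.38, Mras -1.32, Esrrb -1.26, Klf4 -1.21, Zfp42 -1.14, Ntn1 -1.12, Nr5a2 -1.11, Epha4 -1.08, Tfap2c -0.93, Sox2 -0.75, Stmn2 -0.69, Asns -0.62, Rfc4 -0.62, Ccnd3 -0.60, Mybl2 -0.57 and Rrm2 -0.46.

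The values of Tdpoz3 and Zfp352 rest on 0 to 2 counts in each Pds5a-KO siGLO library and their size is uncertain.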

How the results depend on the processing

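The Pds5b transcript was lower and past the threshold under every alternative run, which are DESeq2, other scalings, other filters, only the groups compared, replicate number in the model, and each library left out. Of the 1136 DEGs against siGLO, 1132 were also called in DESeq2, 1135 with replicate number in the model, 1105 with RLE scaling, 1033 with library totals only and 509 with only the 2 groups. A model of fewer libraries has fewer degrees of freedom and also estimates the spread from other libraries. A stricter or looser limit calls fewer or more genes by construction. For the moves with only the groups compared, with a library left out, in DESeq2 and with replicate number in the model the cause was not tested.

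The 1136 DEGs of siPds5b against siGLO became 2353 at an adjusted p under 0.05, 377 when also doubled or reduced to 50% or less, 524 with only the groups compared, and 689 to 946 with 1 library left out, of which 689 without Pds5a-KO siGLO replicate 2 and 710 without Pds5a-KO siPds5b replicate 2. The 599 higher ones became 1247 at an adjusted p under 0.05, 282 when also doubled or reduced to 50% or less, 301 with only the groups compared, and 344 to 500 with 1 library left out, of which 344 without Pds5a-KO siGLO replicate 2 and 377 without Pds5a-KO siPds5b replicate 2. The 537 lower ones became 1106 at an adjusted p under 0.05, 95 when also doubled or reduced to 50% or less, 223 with only the groups compared, and 333 to 457 with 1 library left out, of which 345 without Pds5a-KO siGLO replicate 2 and 333 without Pds5a-KO siPds5b replicate 2. The 222 interaction DEGs became 578 at an adjusted p under 0.05, 118 when also doubled or reduced to 50% or less, 134 with only the groups compared, 421 in DESeq2, 389 with replicate number in the model, and 121 to 232 with 1 library left out, of which 143 without Pds5a-KO siGLO replicate 2, 122 without Pds5a-KO siPds5b replicate 2, 137 without WT siGLO replicate 2, 121 without WT siGLO replicate 3 and 136 without WT siPds5b replicate 1. The 1102 DEGs against siStag1 became 2252 at an adjusted p under 0.05, 344 when also doubled or reduced to 50% or less, 651 with only the groups compared, and 596 to 944 with 1 library left out, of which 596 without Pds5a-KO siPds5b replicate 2, 687 without Pds5a-KO siPds5b replicate 3, 647 without Pds5a-KO siStag1 replicate 1, 632 without Pds5a-KO siStag1 replicate 2 and 693 without Pds5a-KO siStag1 replicate 3. The 593 DEGs against siStag2 became 1365 at an adjusted p under 0.05, 166 when also doubled or reduced to 50% or less, 264 with only the groups compared, 897 in DESeq2, 891 with replicate number in the model, and 272 to 474 with 1 library left out, of which 290 without Pds5a-KO siPds5b replicate 1, 273 without Pds5a-KO siPds5b replicate 2, 272 without Pds5a-KO siStag2 replicate 1 and 349 without Pds5a-KO siStag2 replicate 3.

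Replicate number in the model changed the call of Ifitm2 alone among the genes named here, while the count of 1136 became 1568. The named genes were picked with the stability of their calls known, so this says nothing about other genes. Counts of called members of the lists moved by more than 1.5 times in DESeq2, with other scalings, under other filters and with only the groups compared in more lists than the text gives.

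With 3 libraries per group and 18752413 to 22026367 counts each, genes of few counts are the least certain.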
